A study of Mus musculus with 5 samples.

Results

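Skin treated with silver nanoparticles (nAg) was compared with skin treated with zinc oxide nanoparticles (nZnO), both 7 d after a single application to unscratched skin. The mice were chosen by the group row of the count table, which holds 8 mice for the 7 d intact nAg group and 8 mice for the 7 d intact nZnO group, 16 of the 153 mice of the series. All were female SKH-1 mice, a hairless and immunocompetent strain, 7 to 8 weeks old and housed 4 per cage. The nAg mice received 500 μg of polyvinylpyrrolidone-coated silver particles of 25 nm in 10 μL of PBS on the upper back, and the nZnO mice received the same dose and volume of zinc oxide particles of 20 nm. The material measured was RNA of the whole upper back skin biopsy, sequenced from the 3' end with unique molecular identifiers in 5 sequencing pools. Each of the 2 groups had 5 mice in pool 4 and 3 mice in pool 5. Values are also given for nAg and nZnO on scratched skin at 7 d and on intact skin at 24 h, and for intact skin given PBS alone at 7 d, each with 8 mice. Some values cover all 19 groups of the series. These add nAg and nZnO on scratched skin at 24 h, titanium dioxide nanoparticles (nTiO2) and further PBS groups. They also add skin scratched only and naive mice without treatment. As the 7 d intact nAg and nZnO groups received different metals, in particles of different size and coating, these features cannot be told apart in this comparison.

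Silver and zinc ions both bind thiol groups of proteins. Zinc entering a cell releases the transcription factor MTF1 onto metallothionein and zinc exporter promoters, and silver ions displace zinc from metallothionein and are bound by it in turn. Oxidative stress from metal particles is commonly read from the NRF2 targets, among them haem oxygenase, and particles that are taken up pass through the lysosome, whose genes are controlled as the CLEAR network. Metallothioneins are also a normal product of keratinocytes.

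The treatment label of nZnO replicate 7 names scratched skin with nZnO, although its group in the count table is that of intact skin, and it was the only mouse of the 153 with such a conflict. Calls in the fits of all mice, and the fold changes of Rpsa-ps10 and Rpl14-ps1, are therefore given with and without it. Other values are given with it unless stated, and some of them differ without it. The RNA integrity number, a score of RNA quality, was 9.4, 9.7, 9.7, 9.7, 9.7, 9.5, 8.2 and 7.8 in nAg replicates 1 to 8, against 8.4 to 8.6 in all 8 nZnO mice. The means were 9.21 ± 0.764 in nAg mice and 8.50 ± 0.0756 in nZnO mice (SD, n = 8 each), and this difference of 0.7125 gave p = 0.0236 in a two-sided exact permutation test over 12870 regroupings. The total count was 896898 to 2826423 (median 1237420) in nAg mice and 813175 to 2071225 (median 1051344) in nZnO mice (exact permutation p = 0.613), and 17598 to 21308 genes were detected in nAg mice, against 17223 to 20431 in nZnO mice (exact permutation p = 0.531). A count of 0 in 1 mouse allows up to 1.06 to 3.69 CPM (counts scaled to a common library total of 1000000), taken as 3 counts of its total, with counting error only. RNA integrity thus moved with the groups, and its part in the results below was not tested beyond the fit that holds it as a covariate. In pool 5 it was 9.5 to 9.7 in nAg mice and 8.4 to 8.5 in nZnO mice. Within that pool, RNA integrity and material cannot be told apart.

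The tissue was checked by its markers. Basal keratinocyte genes summed to 4226 to 6064 CPM (median 4881) in nAg mice, against 4406 to 7288 CPM (median 5141) in nZnO mice, with the keratin gene Krt14 at 2172 ± 301 CPM in nAg mice and 2450.0 ± 450.2 CPM in nZnO mice (SD, n = 8 each). Suprabasal and cornified layer genes summed to 16399 to 22268 CPM (median 19786) in nAg mice, against 16519 to 30107 CPM (median 21602) in nZnO mice, and fibroblast and collagen genes to 8373 to 11678 CPM (median 10226) in nAg mice, against 8479 to 14949 CPM (median 9986) in nZnO mice. Skeletal muscle genes, which belong to tissue under the skin, summed to 1193 to 15773 CPM (median 13084) in nAg mice, against 914 to 18988 CPM (median 6929) in nZnO mice. In such whole biopsies, fewer cells of a type and less RNA per cell cannot be told apart.

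Of 11742 genes tested at 7 d on intact skin, 0 were called in either direction (0% of those tested) by the edgeR quasi-likelihood test with pool as covariate, where a call needed a p under 0.05 after Benjamini-Hochberg adjustment and a log2 fold change of 0.33 or more in size. At an unadjusted p under 0.05 there were 639 genes, 5.44% of those tested, with 296 higher in nAg mice (2.52%) and 343 lower (2.92%). The lowest adjusted p was 0.0860, shared by Rpsa-ps10 and Rpl14-ps1, and the next was 0.589. DESeq2 called 2 genes (Rpl14-ps1 and Rpl14, 496 genes at an unadjusted p under 0.05), and limma voom with quality weights called 2 (Rpl14-ps1 and Rpsa-ps10, 696 genes at an unadjusted p under 0.05). When nZnO replicate 7 was left out, edgeR called 2 of 11639 genes (0.0172%), Rpsa-ps10 and Rpl14-ps1. EdgeR also called 2 genes without nAg replicate 4 (Rpl14-ps1 and Rpsa-ps10) and 1 (Ctsk) without nZnO replicate 4. With RNA integrity as a covariate it called 0, with 404 genes at an unadjusted p under 0.05 and a lowest adjusted p of 0.398. That covariate turned the sign of the median in 15 of the 44 gene lists described below. The median log2 fold change over all genes was 0.000115, the median standard error was 0.152, and 14 genes had an absolute log2 fold change of 1 or more.

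**Figure D1:**
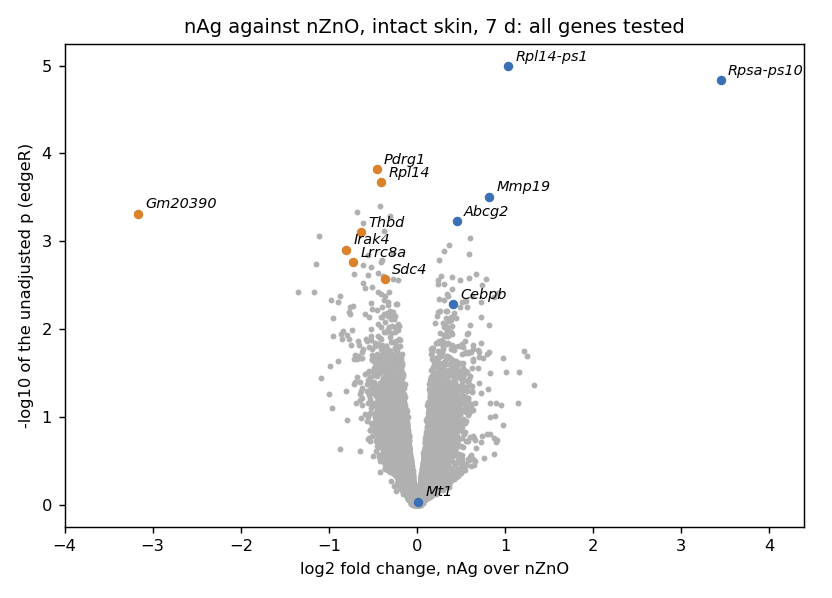
All 11742 genes tested, by log2 fold change of nAg over nZnO (x axis) and -log10 of the unadjusted edgeR p (y axis), 8 mice per group, with genes named in the text in blue (higher in nAg) and orange (lower in nAg). Rpsa-ps10 and Rpl14-ps1 stand at the top right with log2 fold changes of 3.45 and 1.03, and Mt1, a metallothionein gene, stands at 0.012.

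The lowest p-values were those of a pair of ribosomal protein pseudogenes, and Pdrg1 and the ribosomal protein gene Rpl14 came next. Rpsa-ps10 (GRCm39 chr3:149778295-149779179, minus strand) is annotated as a processed pseudogene, an intronless copy of an mRNA inserted in the genome, and its parent is Rpsa (chr9:119956755-119962787, plus strand), which codes for a protein of the small ribosomal subunit. Rpl14-ps1 (chr7:44974389-44975041, plus strand) is a processed pseudogene of Rpl14 (chr9:120400489-120403866, plus strand), which codes for a protein of the large subunit. Rpsa and Rpl14 lie 437.7 kb apart on chromosome 9, while the pseudogenes lie on chromosomes 3 and 7. Over its 885 bases Rpsa-ps10 differs from the Rpsa transcript at 6 positions (99.32% identity, 0 gaps), and Rpl14-ps1 differs from the Rpl14 transcript at 4 of 653 aligned positions (99.39% identity, 1 gap). Counts of such near-identical copies are uncertain, since a read without one of these positions fits both copies, and only uniquely aligned reads were counted.

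To show how alike the copies are, 30 bases of the coding stretch with the most differences are given for each pair, 5′ to 3′ on the transcribed strand of the GRCm39 reference, with the differing bases in capitals.
Rpsa-ps10, chr3:149778961-149778990, minus strand: gctattgttgccatcgagaaCcctgctgaT
Rpsa, chr9:119958280-119958309, plus strand: gctattgttgccatcgagaaTcctgctgaC
Rpl14-ps1, chr7:44974782-44974811, plus strand: agagctgctatcctgaaagcttctccTaaG
Rpl14, chr9:120403200-120403229, plus strand: agagctgctatcctgaaagcttctccCaaA
Each pair differs at 2 of the 30 bases, so a read over this stretch is told apart by those bases alone.

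Rpsa-ps10 had 268, 336, 259.7, 236, 414, 348, 231 and 405 CPM in nAg replicates 1 to 8, against 10.04, 5.64, 11.1, 7.38, 9.17, 4.12, 241 and 7.40 CPM in nZnO replicates 1 to 8. All 8 nAg mice were high and 7 of the 8 nZnO mice were low, and the high nZnO mouse was replicate 7, the mouse with the label conflict. The log2 fold change was 3.45 ± 0.61 (SE, n = 8 each, adjusted p = 0.0860 by edgeR) with that mouse and 5.28 ± 0.21 without it (adjusted p = 7.99e-12). Within pool 4, where all 5 nZnO mice were low, it was 5.19 (adjusted p = 6.04e-09, the single call of 11689 genes, 0.00856%), and within pool 5, which holds replicate 7, it was 1.94 (adjusted p = 0.899). With RNA integrity as a covariate it was 3.77 (adjusted p = 0.398). Without replicate 7, and within pool 4, all nAg mice were high and all nZnO mice were low. The SE and p-values there measure the spread among high or among low mice. They do not measure how often a mouse is high, and both levels occurred in most groups of the series, as described below.

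Rpl14-ps1 followed the same mice. It had 85.7, 130.5, 91.4, 98.7, 134, 111, 86.4 and 123 CPM in nAg replicates 1 to 8, against 54.1, 33.8, 47.8, 60.3, 44.9, 39.1, 94.6 and 42.3 CPM in nZnO replicates 1 to 8. Every nAg mouse lay above the nZnO mice other than replicate 7, and the groups overlapped through that mouse. The log2 fold change was 1.03 ± 0.18 (SE, adjusted p = 0.0860 by edgeR) with it and 1.22 ± 0.15 without it (adjusted p = 6.13e-04). The parent gene Rpl14 stood the other way, with 579.8 to 726 CPM (median 645) in nAg mice, against 706 to 1006 CPM (median 821) in nZnO mice and a log2 fold change of -0.40 ± 0.089 (SE, adjusted p = 0.622 by edgeR). Here 6 of 8 nAg mice were below all nZnO mice, and the lowest nZnO mouse was replicate 7. Rpsa, singled out after its values were seen, had 98.1 to 181 CPM (median 127) in nAg mice, against 137 to 211 CPM (median 149.9) in nZnO mice, with a log2 fold change of -0.33 ± 0.10 (SE, adjusted p = 0.817 by edgeR).

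Rpsa-ps10 made up 59.7% to 80.4% (median 70.7%) of the summed counts of Rpsa-ps10 and Rpsa in nAg mice, against 2.80% to 63.8% (median 4.88%) in nZnO mice. The sum of this pair was 441 ± 62.6 CPM in nAg mice and 194 ± 78.2 CPM in nZnO mice (SD, n = 8 each). For Rpl14-ps1 and Rpl14 the pseudogene's share was 10.8% to 18.04% (median 14.4%) in nAg mice, against 4.14% to 11.8% (median 4.91%) in nZnO mice, and the sum was 759.6 ± 39.3 CPM in nAg mice and 896.0 ± 109.5 CPM in nZnO mice.

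**Figure D2:**
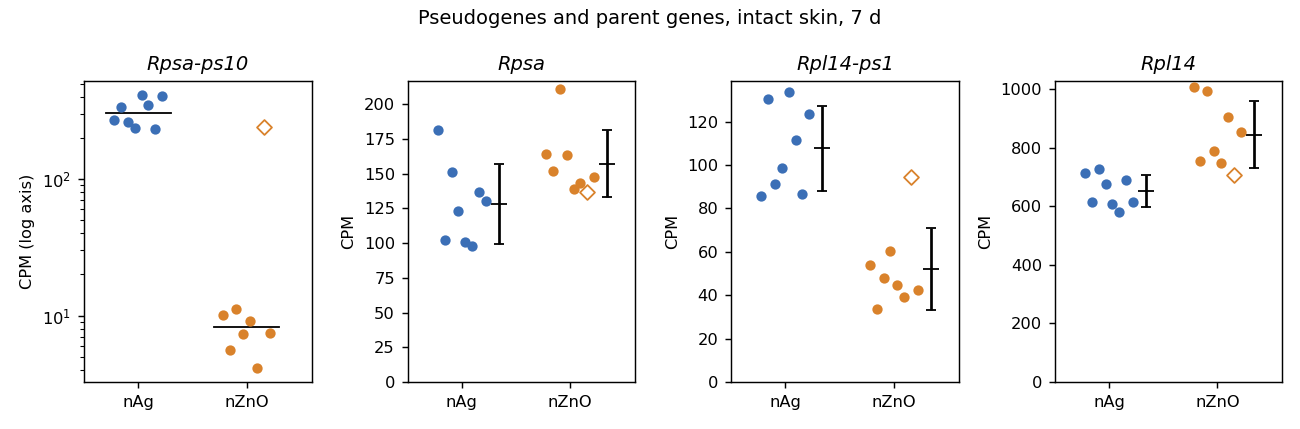
CPM of the pseudogenes Rpsa-ps10 and Rpl14-ps1 and of their parent genes in each mouse (points), with the mean and SD (bars) or, on the log axis, the median (line), in 8 nAg and 8 nZnO mice. The open diamond is nZnO replicate 7, which lies at 241 CPM of Rpsa-ps10 among 7 nZnO mice at 4.12 to 11.1 CPM.

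The level of Rpsa-ps10 fell into 2 ranges over the whole series, with 94 of the 153 mice at 130 to 466 CPM, 59 mice at 2.67 to 18.3 CPM and 0 mice between 25 and 100 CPM. Both ranges occurred in every group except the 7 d intact nAg group, in which all 8 mice were in the upper one. The 7 d intact nZnO group had the fewest mice in the upper range, 1 of 8. Of the 8 mice of each other group with these metals, the upper range held 3 on scratched skin with nAg at 7 d, 6 on scratched skin with nZnO at 7 d, 5 with nAg and 5 with nZnO on intact skin at 24 h, and 5 with nAg and 6 with nZnO on scratched skin at 24 h. It also held 2 of 8 PBS mice at 7 d and 5 of 9 naive mice, which received no treatment. Rpl14-ps1 had a median of 90.8 CPM (range 40.2 to 178) over the mice in the upper range and 46.5 CPM (range 24.6 to 110.6) over those in the lower one, given as a description of values that define no treatment.

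**Figure D3:**
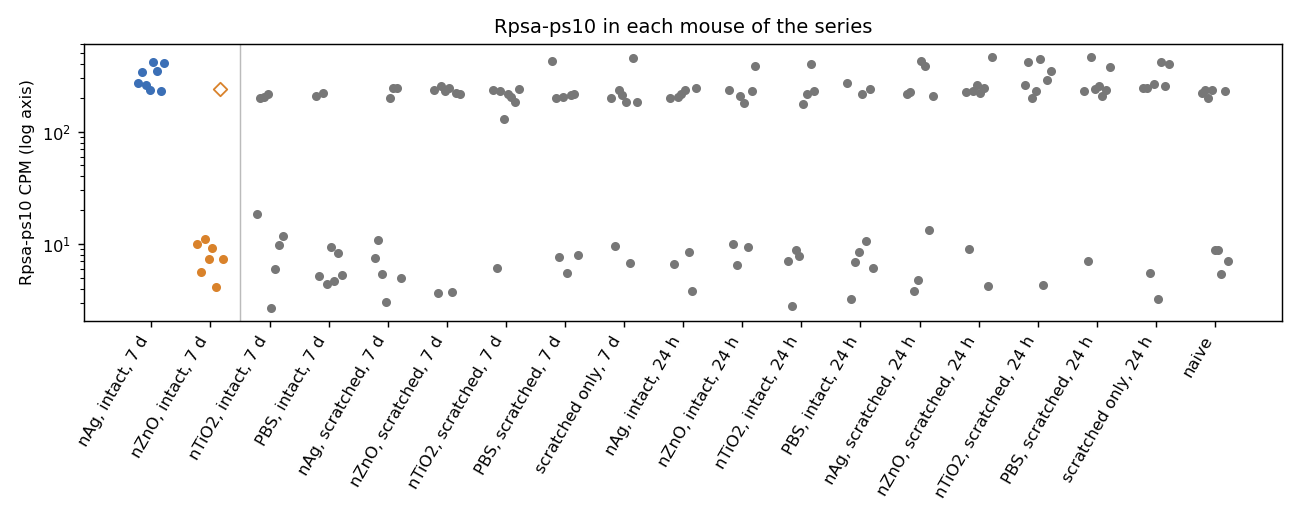
Rpsa-ps10 CPM (log axis) in each of the 153 mice by group, with the 7 d intact nAg (blue) and nZnO (orange) groups at the left and the open diamond for nZnO replicate 7. The nAg group holds 8 mice in the upper range and 0 in the lower, the nZnO group holds 1 and 7, and each of the other groups holds mice in both.

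Around Rpsa and Rpl14 on chromosome 9, a window chosen after the values were seen, 63 genes within 5 Mb were tested and 5 had an unadjusted p under 0.05 (7.94%, against 5.44% of all genes), 2 higher and 3 lower in nAg mice. The 3 lower ones were Rpl14, Rpsa and Acaa1a. The window was placed on Rpl14 and Rpsa, so the share of 7.94% counts them by choice. It cannot show an excess over all genes. The median log2 fold change of the 63 genes was -0.013.

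After the pseudogenes, the 8 genes of lowest p with positive log2 fold changes and at least 10 CPM did not pass the threshold, with adjusted p-values of 0.662 to 0.77 by edgeR. Mmp19 (chr10:128626773-128636695, plus strand), a matrix metalloproteinase of skin and other tissues, had 26.8 to 75.8 CPM (median 52.3) in nAg mice, against 20.01 to 38.1 CPM (median 27.9) in nZnO mice. Its log2 fold change was 0.82 ± 0.19 (SE), and 6 of 8 nAg mice lay above all nZnO mice. Within pool 4 it was 0.47, and within pool 5 it was 1.33 (adjusted p = 0.00853 by edgeR). Abcg2 (chr6:58561505-58672661, plus strand), an efflux pump for drugs and porphyrins, had 31.2 to 44.6 CPM (median 34.9) in nAg mice, against 17.97 to 36.03 CPM (median 24.97) in nZnO mice (log2 fold change 0.45 ± 0.11, SE). Zfp467, a zinc finger gene, had 17.1 to 30.7 CPM (median 23.01) in nAg mice, against 10.004 to 19.3 CPM (median 15.04) in nZnO mice, and 7 of 8 nAg mice lay above all nZnO mice (log2 fold change 0.61 ± 0.16, SE). The groups still overlapped for each of the 3 genes.

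Commd1, whose product takes part in copper export, had 217 to 262 CPM (median 243) in nAg mice, against 174 to 235 CPM (median 194) in nZnO mice, and its log2 fold change was 0.25 ± 0.070 (SE). The nZnO mouse highest for Commd1 was replicate 1, and the other 7 were at 174 to 202 CPM. Gadd45gip1, a component of the mitochondrial ribosome, had 41.7 to 79.1 CPM (median 71.8) in nAg mice, against 28.2 to 61.9 CPM (median 40.7) in nZnO mice (log2 fold change 0.59 ± 0.16, SE). Ykt6, a SNARE of vesicle fusion, had 73.6 to 109.5 CPM (median 90.5) in nAg mice, against 61.1 to 81.8 CPM (median 68.8) in nZnO mice (log2 fold change 0.31 ± 0.082, SE). The log2 fold changes of the zinc finger gene Zfp511 and of BC064078, a transcribed pseudogene, were 0.68 ± 0.19 and 0.36 ± 0.096 (SE). BC064078 (chr6:128970003-128984924, plus strand) neighbours Gm15987 (chr6:128898007-128952081, minus strand), which stood lower in nAg mice and is described with the next genes.

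The 10 genes of lowest p with negative log2 fold changes had adjusted p-values of 0.589 to 0.77 by edgeR, and Rpl14 was one of them. Pdrg1 (chr2:152849855-152858009, minus strand), a prefoldin-like gene regulated by p53 and DNA damage, had 78.99 to 129.8 CPM (median 102) in nAg mice, against 110.0 to 178 CPM (median 133) in nZnO mice. The log2 fold change was -0.46 ± 0.098 (SE), and 5 of 8 nAg mice lay below all nZnO mice. Cpeb2, which binds cytoplasmic polyadenylation elements in mRNAs, had 28.99 to 46.7 CPM (median 39.7) in nAg mice, against 43.2 to 60.02 CPM (median 54.6) in nZnO mice (log2 fold change -0.42 ± 0.10, SE). Stxbp6, a SNARE-binding protein gene, had 7.80 to 21.2 CPM (median 11.2) in nAg mice, against 13.5 to 20.9 CPM (median 19.3) in nZnO mice (log2 fold change -0.68 ± 0.16, SE). In Stxbp6, 7 of 8 nAg mice lay below all nZnO mice, and the remaining one, replicate 6, lay above all of them.

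Acaa1a (chr9:119168742-119182956, plus strand), a peroxisomal thiolase of fatty acid oxidation, had 89.2 to 128 CPM (median 115) in nAg mice, against 116 to 151 CPM (median 138) in nZnO mice (log2 fold change -0.30 ± 0.073, SE). Thbd, thrombomodulin of the endothelial and keratinocyte surface, had 11.1 to 23.7 CPM (median 18.1) in nAg mice, against 16.7 to 32.8 CPM (median 25.8) in nZnO mice (log2 fold change -0.64 ± 0.16, SE). Dcaf7, a substrate receptor of CUL4 ubiquitin ligases, had 31.1 to 48.1 CPM (median 40.7) in nAg mice, against 43.2 to 60.02 CPM (median 52.96) in nZnO mice (log2 fold change -0.37 ± 0.094, SE). The levels of these 3 genes overlapped between the groups in part, with 5, 3 and 5 of 8 nAg mice below all nZnO mice. The long non-coding RNAs Gm15987 and Gm28875 had log2 fold changes of -0.62 ± 0.15 and -1.12 ± 0.29 (SE).

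Irak4, the kinase that carries signals of interleukin 1 and Toll-like receptors, had 12.3 to 27.9 CPM (median 16.6) in nAg mice, against 12.2 to 52.9 CPM (median 30.01) in nZnO mice (log2 fold change -0.80 ± 0.21, SE). The spread was wider in nZnO mice, where replicate 4 had 52.9 CPM and replicate 3 had 12.2 CPM, so that 0 of 8 nAg mice lay below all nZnO mice. Gm20390, singled out after its values were seen, was at or under 0.765 CPM in 7 of 8 nAg mice and at 13.4 CPM in replicate 6, against 0 to 29.9 CPM (median 12.6) in nZnO mice, where replicate 2 had 0 counts (log2 fold change -3.17 ± 0.76, SE, adjusted p = 0.662 by edgeR). Gm20390 passed the filter on low counts through the nZnO mice alone, so its direction is given as a description.

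Genes of the metal response gave no call in all 16 mice. Mt1, a metallothionein that binds zinc, copper and silver, had 348 to 625 CPM (median 417) in nAg mice, against 319.7 to 568 CPM (median 426) in nZnO mice, and its log2 fold change was 0.012 with a 95% interval of -0.24 to 0.26. Mt2, its neighbour and close relative, had 144 to 330.4 CPM (median 206) in nAg mice, against 162 to 275 CPM (median 220.1) in nZnO mice (log2 fold change -0.087, interval -0.36 to 0.19). Slc30a1, the zinc exporter of the plasma membrane, had 70.999 to 99.2 CPM (median 86.1) in nAg mice, against 61.9 to 102 CPM (median 77.7) in nZnO mice (log2 fold change 0.058, interval -0.14 to 0.26). These intervals leave room for differences of up to about those bounds in either direction, and the missing calls do not show that the particles act alike. In 8 PBS-treated mice at 7 d, whose libraries lie in pools 1 and 3 so that pool and treatment cannot be told apart, the same genes had 357 ± 32.8 CPM, 202 ± 14.9 CPM and 80.1 ± 14.8 CPM (Mt1, Mt2 and Slc30a1, mean ± SD). The lowest total count among these PBS mice was 201053.

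By list, of 5 metallothionein and zinc-sensing genes tested 0 had an unadjusted p under 0.05, and their median log2 fold change was 0.054. The 6 zinc exporters tested had a median of 0.090, led by Slc30a7 and Slc30a9, which load zinc into the secretory pathway and out of mitochondria (log2 fold changes 0.17 and 0.14). For the 10 zinc importers it was 0.066, with Slc39a14 at 0.24 and Slc39a2 at -0.14. Of 9 copper handling genes, 1 was higher (Commd1) and 1 lower (Sod1, the copper and zinc superoxide dismutase, -0.23 ± 0.073, SE) at an unadjusted p under 0.05. Of 9 iron handling genes 8 had negative log2 fold changes, 2 of them at an unadjusted p under 0.05 (Aco1, the iron regulatory protein, at -0.18 and Hfe at -0.36), and 1 had a positive one. Over all genes tested, 2.52% were higher and 2.92% lower at that p, and 50% had positive log2 fold changes.

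**Figure D4:**
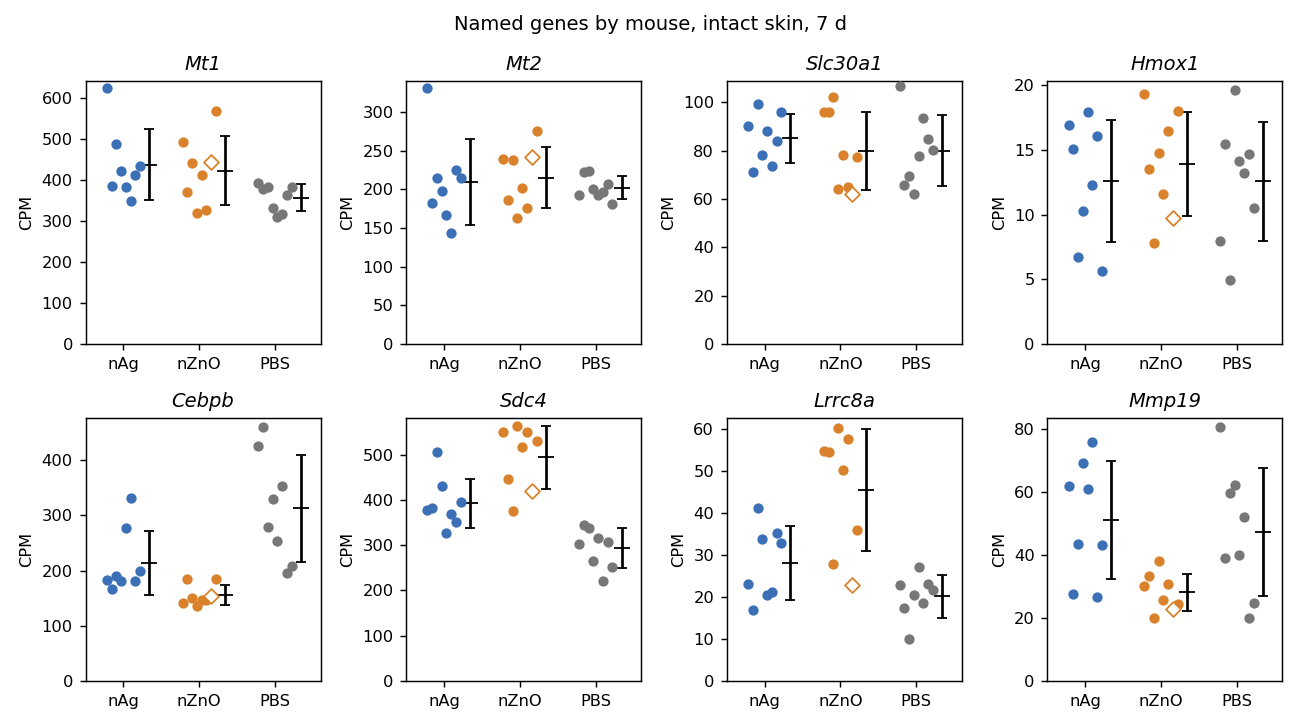
CPM of 8 named genes in each mouse (points) with the mean and SD (bars), in 7 d nAg, nZnO and PBS mice on intact skin, 8 per group; the open diamond is nZnO replicate 7, and PBS mice lie in other sequencing pools. Mt1, Mt2, Slc30a1 and Hmox1 overlap over most of their range, while Lrrc8a has a mean of 28.1 CPM in nAg mice and 45.5 CPM in nZnO mice.

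Stress genes gave no call. Hmox1, the inducible haem oxygenase, had 5.61 to 17.9 CPM (median 13.7) in nAg mice, against 7.78 to 19.3 CPM (median 14.1) in nZnO mice (log2 fold change -0.15, interval -0.65 to 0.35). Of 24 NRF2 oxidative stress genes tested, 0 were higher and 3 lower in nAg mice at an unadjusted p under 0.05, with a median log2 fold change of -0.067. Among all genes 2.52% were higher and 2.92% lower at that p, and 50% had positive log2 fold changes. Cat, catalase, had 81.4 to 140.2 CPM (median 117) in nAg mice, against 121 to 146 CPM (median 134) in nZnO mice (log2 fold change -0.27 ± 0.088, SE), and 6 of 8 nAg mice lay below all nZnO mice. Txnrd1, thioredoxin reductase, was at -0.24 ± 0.091 (SE). Heat shock genes had a median of -0.17, with 12 of 14 negative and 1 at an unadjusted p under 0.05, namely the chaperone gene Hspa1b (-0.40 ± 0.18, SE), followed by Hspb1 (-0.26). For the unfolded protein response the median was -0.055 over 13 genes (Calr -0.16, Dnajb9 -0.17), and for p53 targets 0.038 over 13 genes (Phlda3 0.29, Sesn1 0.16).

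Lrrc8a, the obligatory subunit of the volume-regulated anion channel, had 16.9 to 41.2 CPM (mean 28.1) in nAg mice, against 22.98 to 60.3 CPM (mean 45.5) in nZnO mice, with a log2 fold change of -0.72 ± 0.20 (SE, adjusted p = 0.77 by edgeR). The nZnO mice replicates 3, 7 and 8 had 27.8, 23.0 and 35.9 CPM and the other 5 had 50.2 to 60.3 CPM, above all nAg mice. All 5 subunits tested had negative log2 fold changes, median -0.33, and Lrrc8a was the 1 with an unadjusted p under 0.05 (Lrrc8b -0.33). For all genes tested, 2.92% were lower at that p and 50% had positive log2 fold changes. Sdc4, the heparan sulphate proteoglycan syndecan 4, had 327 to 505 CPM (median 379) in nAg mice, against 375 to 564 CPM (median 524) in nZnO mice (log2 fold change -0.36 ± 0.11, SE). In PBS mice, which lie in other sequencing pools, Sdc4 was 294 ± 43.2 CPM (SD, n = 8), so pool and treatment cannot be told apart. Ado, cysteamine dioxygenase, had 34.4 to 69.1 CPM (median 44.04) in nAg mice, against 44.2 to 74.8 CPM (median 61.2) in nZnO mice (log2 fold change -0.38 ± 0.15, SE). Dcun1d5, a factor of cullin neddylation, was at 0.057 (interval -0.13 to 0.24).

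Cebpb, a C/EBP transcription factor of epidermal differentiation and inflammation, had 166 to 331 CPM (median 186) in nAg mice, against 137 to 186 CPM (median 149) in nZnO mice, with a log2 fold change of 0.41 ± 0.13 (SE, adjusted p = 0.817 by edgeR). The nAg replicates 5 and 6, both in pool 5, were highest with 278 and 331 CPM, and within pool 4 the log2 fold change was 0.19, against 0.76 within pool 5. In PBS mice, which lie in other sequencing pools, Cebpb was 313 ± 97.2 CPM (SD, n = 8), so pool and treatment cannot be told apart. The 5 C/EBP genes tested had a median of 0.039 (Cebpz -0.14). The 28 lysosome and CLEAR genes tested had a median of -0.0021. Of these, 1 was higher at an unadjusted p under 0.05 (2.52% of all genes tested were). That gene was Gpnmb, a glycoprotein of melanosomes and macrophage lysosomes (118 to 217 CPM (median 155) in nAg mice, against 66.6 to 181 CPM (median 128) in nZnO mice, log2 fold change 0.42 ± 0.17, SE), and Mcoln1, the lysosomal calcium channel, was at 0.27. Of vitamin C transport genes only 2 of 6 passed the filter on low counts, Slc23a2 (0.20) and Slc2a1 (0.012).

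Immune cell markers gave no call. At an unadjusted p under 0.05, 2.52% of all genes tested were higher and 2.92% lower in nAg mice. The summed neutrophil markers were 708 to 1849.7 CPM (median 1027) in nAg mice, against 741 to 1317 CPM (median 1111) in nZnO mice, and 6 of 13 were tested with a median log2 fold change of 0.082 (S100a8 0.19, Il1r2 -0.19). All 20 monocyte and macrophage markers were tested, median -0.075, with 0 at an unadjusted p under 0.05 (Cd163 -0.38, Adgre1 -0.22). Dendritic and Langerhans cell markers had a median of 0.018 over 11 genes, and Cd74, the invariant chain of MHC class II, was the 1 gene at an unadjusted p under 0.05 (0.21 ± 0.094, SE), with Cd207 at 0.11. Mast cell markers had a median of -0.013 (Mrgprb1 -0.46, Tpsab1 0.25), and T cell markers -0.11 (Cd3g -0.33, Nkg7 -0.32). Of 8 B and plasma cell markers 3 were tested and Mzb1 had 0 counts in the 16 mice, with Ighm, the immunoglobulin M heavy chain, at 0.32 ± 0.12 (SE, the 1 at an unadjusted p under 0.05) and Igkc at -0.13.

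Chemokine genes had negative log2 fold changes in 20 of 27 tested, 3 of them at an unadjusted p under 0.05 and 0 higher, with a median log2 fold change of -0.13 (all genes: 2.92% lower at that p, 50% with positive log2 fold changes). With RNA integrity as a covariate the median was 0.045. Ccl11, eotaxin, had 36.4 to 71.9 CPM (median 45.4) in nAg mice, against 37.003 to 84.9 CPM (median 64.8) in nZnO mice (log2 fold change -0.41 ± 0.15, SE). Cxcl13, which attracts B cells, had 27.9 to 76.5 CPM (median 38.4) in nAg mice, against 21.1 to 126 CPM (median 80.9) in nZnO mice (-0.72 ± 0.29, SE), and within pool 5 its log2 fold change was -1.29 (adjusted p = 0.0252 by edgeR). Interferon-stimulated genes had a median of -0.16, with 12 of 13 negative and 0 at an unadjusted p under 0.05 (Ifit1 -0.97 ± 0.52, Cxcl10 -0.79 ± 0.47, SE). With RNA integrity as a covariate this median was 0.00095, with Ifit1 at -0.30 and Cxcl10, a member of both lists, at -0.18. The interleukin 1 family was at -0.056 over 16 genes (Il36rn -0.17, Il1b -0.35). Acute-phase and antimicrobial genes were at 0.070 over 11 (Defb14, a beta-defensin, -0.55 and Slpi -0.25), and complement genes at -0.0061 over 13 (C1s1 -0.36, C2 0.27).

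In the epidermis, suprabasal and cornified layer genes had negative log2 fold changes in 20 of 27, 3 at an unadjusted p under 0.05 and 1 higher, with a median of -0.15 (all genes: 2.92% lower and 2.52% higher at that p, 50% with positive log2 fold changes). Abca12, the lipid transporter of lamellar granules, had 56.9 to 109.5 CPM (median 88.1) in nAg mice, against 88.6 to 150.1 CPM (median 109) in nZnO mice (log2 fold change -0.37 ± 0.12, SE). The higher one was Krt2, a keratin of the upper spinous layer, with 0 to 21.9 CPM (median 8.31) in nAg mice, against 0 to 11.1 CPM (median 2.90) in nZnO mice (1.25 ± 0.49, SE), near the limit of detection. Krt2 passed the filter on low counts through the nAg mice alone, so its direction is given as a description. Basal keratinocyte genes had a median of -0.0065 over 9 (Dst -0.17, Krt14 -0.21), wound-associated epidermal genes -0.039 over 14 (Sprr2d -0.52, Sprr3 at 0 counts), and junction genes -0.027 over 12 (Dsp -0.16, Tjp1 -0.20).

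Lipid genes gave no call. Sebaceous gland genes were negative in 12 of 13 and 3 had an unadjusted p under 0.05, with a median of -0.17. Of all genes tested, 2.92% were lower at that p and 50% had positive log2 fold changes. Elovl4, an elongase of very long-chain fatty acids, was at -0.26 ± 0.11 and Scd1, the stearoyl-CoA desaturase of sebocytes, at -0.40 ± 0.17 (SE). Cholesterol and fatty acid synthesis genes were negative in 14 of 19, 4 at an unadjusted p under 0.05, with a median of -0.085. Scd1 and Fasn, the fatty acid synthase gene, are members of both lists and among the genes at that p in each. Adipocyte genes gave a median of -0.15 over 13 (the lipase genes Pnpla2 -0.37 and Lipe -0.23). The groups overlapped in the summed sebaceous genes, which were 3113 to 4934 CPM (median 3956) in nAg mice, against 3739 to 5102 CPM (median 4404) in nZnO mice.

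Hair follicle genes gave other values in pool 4 than in pool 5, a difference between pools that was not tested. SKH-1 mice lose their coat but keep malformed follicles that go on cycling. Hair cortex genes gave a median of 0.31 on the log2 scale over 13 genes in all mice, -0.52 within pool 4 and 2.63 within pool 5. Their sums in pool 5 were 499.6, 271 and 253 CPM in nAg mice, against 122, 59.7 and 50.4 CPM in nZnO mice. In pool 4 they were 91.0 to 641 CPM in nAg mice, against 150.03 to 845 CPM in nZnO mice. Inner root sheath genes gave 0.36 in all mice, -0.26 within pool 4 and 1.98 within pool 5. The filter on low counts passed genes seen in either group, so a list gene could enter a fit through 1 group alone. The hair list medians and the values of their single genes are therefore given as a description. With RNA integrity as a covariate the hair cortex median was 0.017 and the inner root sheath median -0.0037. Among all mice 0 genes of either list had an unadjusted p under 0.05 (Padi3 0.58 ± 0.43, Foxn1 0.35 ± 0.28, Tchh 0.67 ± 0.54 and Krt25 0.61 ± 0.54, SE).

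With the 3 nAg and 3 nZnO mice of pool 5 alone, edgeR called 35 of 11465 genes (0.305%), 34 higher and 1 lower in nAg mice, after 0 in all mice. Of these, 21 had names starting with Krtap, for keratin-associated protein (Krtap6-1 led with a log2 fold change of 5.42 ± 0.40, SE, adjusted p = 2.20e-04 by edgeR). Genes of that family under other names were not counted. A further 5 were keratin genes, among them Krt31 (2.95 ± 0.50, SE, adjusted p = 0.0293 by edgeR). The lower one was Cxcl13. The metallothionein gene Mt4, a product of stratified epithelia, was among the higher ones (0.90 ± 0.16, SE, adjusted p = 0.0394 by edgeR), and in all 16 mice its log2 fold change was 0.12 ± 0.34 (SE). The nZnO mice of this pool include replicate 7, and the direction of the hair lists was the opposite within pool 4. RNA integrity did not overlap between the groups in pool 5, so it and material cannot be told apart in these calls. The filter on low counts passed genes seen in either group, so a gene could enter this fit through the nAg mice alone. The p-values and directions of these calls are therefore given as a description.

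**Figure D5:**
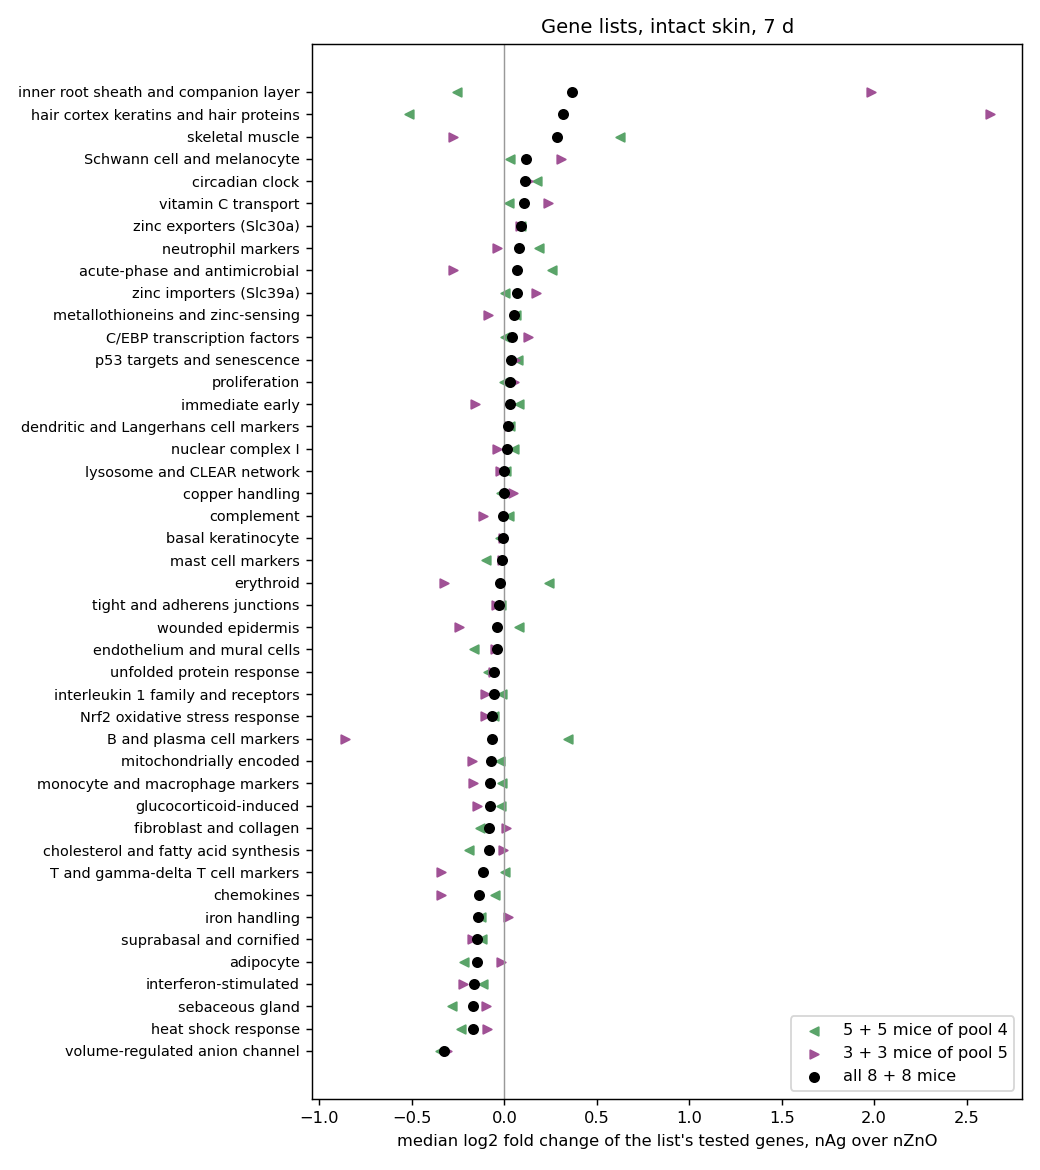
Median log2 fold change, nAg over nZnO, of the tested genes of each of 44 gene lists (x axis) in all 16 mice (black circles), in the 10 mice of pool 4 (green) and in the 6 mice of pool 5 (purple). Most medians lie near 0, whereas the inner root sheath and hair cortex lists lie at 1.98 and 2.63 in pool 5 and below 0 in pool 4.

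The lists of other tissues and regulators held 0 called genes. Skeletal muscle genes had positive log2 fold changes in 17 of 17 tested, with a median of 0.29, where 50% of all genes tested were positive. Yet 0 of them had an unadjusted p under 0.05 (Actn3 0.47 ± 0.63, Tcap 0.45 ± 0.60, SE). The muscle median was 0.62 within pool 4, -0.28 within pool 5 and 0.097 with RNA integrity as a covariate. Medians were -0.082 for fibroblast and collagen genes (Col6a1 -0.20, Dpt -0.13), -0.041 for vessel genes (Rgs5 -0.15, Myh11 -0.30), 0.12 for Schwann cell and melanocyte genes (Dct 0.29) and -0.022 for erythroid genes (Alas2 -0.38, Hbb-bs 0.042). Clock genes had a median of 0.11 over 15 (Tef 0.46), glucocorticoid-induced genes -0.078 over 8 (Sgk1 -0.17, Dusp1 -0.24) and immediate early genes 0.029 over 14 (Junb 0.11, Fosl2 -0.11). Proliferation genes had a median of 0.033 over 16, and 2 were higher at an unadjusted p under 0.05, Tyms, thymidylate synthase (0.17 ± 0.081), and Mcm3, a subunit of the replicative helicase (0.33 ± 0.16, SE). Over all genes tested, 2.52% were higher at that p. Nuclear genes of respiratory complex I had a median of 0.014 over 37 (Ndufb3 -0.10, Ndufb4 0.16), and the 7 mitochondrially encoded genes tested -0.071 (mt-Nd6 0.30, mt-Nd4 -0.15).

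The same contrast was fitted on scratched skin at 7 d and on intact skin at 24 h. On scratched skin edgeR called 0 of 11828 genes (0%), with 676 (5.72%) at an unadjusted p under 0.05, and at 24 h it called 0 of 11503 (0%), with 552 (4.8%). DESeq2 called 0 genes in both. The interaction of material with skin state at 7 d (intact minus scratched) called 0 of 12164 genes (0%), with 667 (5.48%) at an unadjusted p under 0.05, and DESeq2 again called 0. Without the mouse with the label conflict, edgeR called Rpsa-ps10 and Rpl14-ps1 in the interaction (lowest adjusted p = 0.0241). On scratched skin at 7 d, both levels of Rpsa-ps10 occurred with either metal. The p does not measure how often a mouse is high, and the calls are given as a description.

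The named genes had these log2 fold changes of nAg over nZnO side by side (± SE). Rpsa-ps10 was at 3.45 ± 0.61 on intact skin at 7 d, -0.99 ± 0.79 on scratched skin at 7 d and 0.12 ± 1.03 on intact skin at 24 h. Mmp19 was at 0.82 ± 0.19, -0.66 ± 0.36 and 0.65 ± 0.49 in the same order. For Lrrc8a the values were -0.72 ± 0.20, -0.085 ± 0.16 and -0.094 ± 0.25, and for Sdc4 they were -0.36 ± 0.11, 0.061 ± 0.11 and 0.16 ± 0.18. Cebpb was at 0.41 ± 0.13, -0.32 ± 0.18 and -0.37 ± 0.16, and its interaction term of 0.72 ± 0.26 had an adjusted p of 0.824 by edgeR. Mt1 was at 0.012 ± 0.12, 0.047 ± 0.097 and 0.24 ± 0.13, and Mt2 at -0.087 ± 0.13, 0.083 ± 0.11 and 0.33 ± 0.14. None of these values passed the threshold.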

How the data were processed

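Reads under 20 bp were removed by the authors (Trimmomatic), STAR 2.7.6a placed the others on GRCm39 (Gencode M28), and UMIs of uniquely placed reads became gene counts in Drop-seq tools 2.4.1. These counts, deposited unnormalised, cover 36716 genes and 153 mice. A deposited quality score (RNA integrity number), pool and treatment accompany each mouse. The series text states that 6 of 8 mice per group were sequenced, but the table holds 8 per group and 9 naive mice. The GEO samples are pools, so groups came from the count table's group row. Each mouse is a replicate, and cage was not modelled.

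A gene entered the test if its count exceeded 5 in a share of 0.75 of either group. TMM scaling and the quasi-likelihood test used R 4.3.3 and edgeR 4.0.16 with pool as covariate, and a call needed adjusted p under 0.05 with a log2 fold change of 0.33 or more in size. DESeq2 1.42.0 and limma 3.58.1 were alternatives. CPM is the count scaled to a library total of 1000000. The fits were tested on simulated data. Positions come from Gencode vM39 (GRCm39). Exact permutation tests compared RNA integrity and depth.

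Genes named are called genes or, where fewer than 10 were called in a direction, the 10 of smallest p there with at least 10 CPM, the 2 members of smallest p of each of 44 lists, and Cebpb, Sdc4, Ado, Lrrc8a, Dcun1d5, Mt1, Mt2, Slc30a1 and Hmox1. Rpsa, Gm20390, Fasn and the genes of pool 5 were named after their values were seen. Mice, lists and tests were chosen with earlier results of these data known. The alternatives without nZnO replicate 7 by DESeq2, by limma voom and with RNA integrity were chosen after seeing the data. Some genes that this rule names are not reported here. Histology and microbiota were not analysed here.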

Additional observations from a re-analysis of the deposited data

Results flagged for a closer look

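Values of 8 mice were screened in 226 sets, and in 20 of them the highest or lowest mouse stood apart from the other 7 by more than Dixon's 95% limit for 8 values. By chance about 1 in 20 sets would. Among the ribosomal genes, nZnO replicate 7 had 241 CPM of Rpsa-ps10, against 4.12 to 11.1 in the other 7, and 94.6 CPM of Rpl14-ps1, against 33.8 to 60.3. The nAg replicate 4 had the deepest library with 2826423 counts and 21308 genes, against 896898 to 1597941 counts and 17598 to 19290 genes in the other nAg mice.

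The nZnO replicate 3 stood above its group with 38.9 CPM of Phlda3, 150.1 of Abca12, 2181 of Dsp, 1524 of Scd1 and 211 of Rpsa. Among the other nZnO mice, replicate 1 had 235 CPM of Commd1 and replicate 5 had 11.1 CPM of Krt2. The nAg replicate 1 had 330.4 CPM of Mt2 and 46.9 of Tef. The nAg replicate 6 had 21.2 CPM of Stxbp6, 1918 of Hbb-bs and 13.4 of Gm20390. Further single nAg mice stood apart with 99.5 CPM of Gm15987 in replicate 5, 82.6 CPM of Tpsab1 in replicate 7, 30.4 CPM of Cxcl10 in replicate 8 and 0 CPM of Alas2 in replicate 3, where the other nAg mice had 3.82 to 6.88 CPM and 0 counts allow up to 3.34 CPM.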

How the results depend on the processing

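The count of 0 called genes at 7 d on intact skin held without pool, with RLE size factors, with the filter in each group, with all 7 d groups of pools 4 and 5 in the fit and with RNA integrity as covariate. On adjusted p alone the count could not change, since the lowest adjusted p was 0.0860 by edgeR. It became 2 with DESeq2, 2 with limma voom, 2 at an adjusted p of 0.10, 1 in pool 4 and 35 in pool 5. Without the filter on low counts it was 55 of 28052 genes. Leaving out single mice gave 0 to 2 calls: 2 without nZnO replicate 7 or nAg replicate 4, and 1 (Ctsk, a cathepsin) without nZnO replicate 4. Without nZnO replicate 7 it was 4 with DESeq2, 2 with limma voom and 2 with RNA integrity. The other comparisons gave 157 calls on scratched skin, 2 in the interaction and 82 at 24 h without the filter, 1 at 24 h without pool (Hoxc8), and 0 to 2 in the interaction when single mice were left out, 2 without nZnO replicate 7 of intact skin. The causes were not tested.

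Of 3504 fold changes of named genes under an alternative, 3412 kept their sign and their side of the threshold, 40 passed the threshold and 52 turned sign, in 20 genes. The settings of adjusted p alone and of an adjusted p of 0.10 reused the main fit. Their fold changes and list medians could therefore not change, yet they are counted here and below. With limma voom Igkc was at 0.23 and Mt1 at -0.0051. With RNA integrity as covariate Slc2a1 was at -0.0062, Cd207 at -0.088, Igkc at 0.33, Foxn1 at -0.045, Ndufb4 at -0.053, Dcun1d5 at -0.051 and Mt1 at -0.061. In pool 4 Mt2 was at 0.063, Padi3 at -0.080, Tchh at -0.19, Slc30a1 at -0.0061, Slc2a1 at -0.085, Igkc at 0.35 and Krt25 at -0.11. In pool 5 Actn3 was at -0.045, Cebpz at 0.066, S100a8 at -0.042, Tcap at -0.28, Myh11 at 0.21, Hbb-bs at -0.29, Mt1 at -0.087 and Hmox1 at 0.018. 

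When single mice were left out, Mt1 ranged from -0.057 to 0.084, Igkc from -0.41 to 0.21, Slc2a1 from -0.045 to 0.061 and Hbb-bs from -0.080 to 0.15. Without nZnO replicate 7 by DESeq2, Igkc was at 0.18. Without nZnO replicate 7 and with RNA integrity number as covariate, Slc2a1 was at -0.010, Adgre1 was at 0.016, Cd207 was at -0.052, Igkc was at 0.57, Foxn1 was at -0.063, Ndufb4 was at -0.029, Dcun1d5 was at -0.070 and Mt1 was at -0.026. Without nZnO replicate 7 by limma voom, Igkc was at 0.58. The difference in mean total count, 153368, nAg minus nZnO, ranged from -51704.9 (without nAg replicate 4) to 272465 when single mice were left out. Of 1364 list medians under an alternative, 6 moved by more than the SD between mice. For the hair cortex list that SD was 1.36, so its median of -0.52 in pool 4 did not count as moved. The sign of the median turned in 15 of 44 lists with RNA integrity as covariate, in 9 in pool 4 and in 9 in pool 5. No paired analysis was possible because the replicate numbers only name mice. Shallow libraries limit genes near 3.69 CPM, where a count of 0 is uninformative.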
